A study of Mus musculus with 6 samples.

Results

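The germline genes described here are 10 genes whose normal expression is restricted largely to germ cells, the testis or the early embryo, read in blood stem and progenitor cells that had lost the corepressor TIF1b. The 10 genes were fixed by symbol, and every array probe whose RefSeq accession maps to one of them was taken, which gave 12 probes for 10 genes, out of 55681 probes and 20284 named genes. The genes are Ddx4, Dazl and Mael, which encode RNA-associated proteins of germ cells, and Sycp3, a structural protein of the meiotic chromosome axis. Ldhc encodes the testis form of lactate dehydrogenase, Brdt the testis bromodomain protein, Tex101 a surface protein of germ cells, and Stk31 a testis kinase-like protein. Dppa3 (Stella) marks primordial germ cells and the oocyte, and Rhox5 is an X-linked reproductive homeobox gene.

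The cells were KSL cells, the c-Kit+ Sca1+ Lineage- fraction that holds the blood stem cells, sorted from mice of a C57BL6 background (written C57/BL6 for replicate 2). The fetal liver groups were Tie2-Cre, Tif1bw/w (WT) and Tie2-Cre, Tif1bf/f (KO), with 1 array each. The adult bone marrow groups were CreERT, Tif1bw/w (WT) and CreERT, Tif1bf/f (KO), with 2 arrays each, and the labels of replicate 2 read Tif2b in place of Tif1b. Every sample, the WT included, carried a Cre transgene. Tie2-Cre is active in endothelial cells and the blood cells that descend from them, and CreERT is a form of Cre switched on by tamoxifen. No age, number of animals or treatment with an inducer is given, and whether the arrays of a group stem from different mice is not stated, so the spread behind the p-values may be technical. Each slide held 1 WT and 1 KO array of 1 tissue, so that tissue, Cre transgene and slide cannot be told apart between fetal liver and bone marrow. In sorted bulk RNA, fewer cells of a type and less RNA per cell cannot be told apart either.

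TIF1b is encoded by Trim28. It is recruited to chromatin by zinc finger proteins and brings in the H3K9 methyltransferase SETDB1 and HP1 proteins, which silence repeats and some genes. Germline genes are among the best known targets of stable silencing in body cells. Many of them have promoters rich in CpG that are methylated in body cells, and a Polycomb complex that contains E2F6, MGA and MAX represses a further share through E2F and E-box sites.

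Promoter sequences of the 10 genes were looked up in RefSeq (GRCm38.p6), and 9 genes had an entry. The 4 printed here are the 250 bases before the start of Ddx4 and Ldhc, higher in KO in all 3 pairs, of Rhox5, detected in fetal liver, and of Dazl, detected on no array. They are written 5′ to 3′ on the strand of the gene, with each CpG in capitals.
Ddx4, chr13:112652311-112652560, minus strand: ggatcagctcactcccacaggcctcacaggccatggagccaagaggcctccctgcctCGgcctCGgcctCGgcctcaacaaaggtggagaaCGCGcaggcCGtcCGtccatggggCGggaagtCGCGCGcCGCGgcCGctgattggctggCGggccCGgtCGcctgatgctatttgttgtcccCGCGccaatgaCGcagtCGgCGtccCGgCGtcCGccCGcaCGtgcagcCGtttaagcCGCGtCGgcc
Ldhc, chr7:46861013-46861262, plus strand: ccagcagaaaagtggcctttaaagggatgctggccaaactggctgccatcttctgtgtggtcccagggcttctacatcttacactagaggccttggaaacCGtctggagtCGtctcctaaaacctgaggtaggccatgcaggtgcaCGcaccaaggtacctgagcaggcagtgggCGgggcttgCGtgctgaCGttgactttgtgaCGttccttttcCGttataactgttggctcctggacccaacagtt
Rhox5, chrX:37754358-37754607, plus strand: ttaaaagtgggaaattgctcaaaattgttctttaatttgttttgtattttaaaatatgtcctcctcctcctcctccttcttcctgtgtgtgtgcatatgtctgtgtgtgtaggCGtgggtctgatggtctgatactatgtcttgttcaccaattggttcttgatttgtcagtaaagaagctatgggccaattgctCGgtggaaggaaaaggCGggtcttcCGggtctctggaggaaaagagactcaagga
Dazl, chr17:50293621-50293870, minus strand: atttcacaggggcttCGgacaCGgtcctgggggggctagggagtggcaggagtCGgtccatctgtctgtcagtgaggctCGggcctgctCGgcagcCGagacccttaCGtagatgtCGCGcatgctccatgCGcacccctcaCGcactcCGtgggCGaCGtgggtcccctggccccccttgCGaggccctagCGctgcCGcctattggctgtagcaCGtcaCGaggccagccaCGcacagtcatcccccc
The Ddx4 stretch held 31 CpG, and 1705 of 32851 RefSeq promoter entries held at least as many. Dazl held 20 CpG, the printed Ldhc entry 8 and Rhox5 4, against a median of 6 over all entries. A second Ldhc entry, not printed, held 3. CpG number therefore did not order these genes by whether they were detected, since Ddx4 and Dazl both held many and only Ddx4 was detected. The E-box CACGTG, a palindrome, was found in the stretches of 5 of the genes (Ddx4, Sycp3, Mael, Brdt and Stk31) and in 6.02% of all entries. The E2F-type motif GCGGGA, searched on both strands, was found in 3 (Ddx4, Sycp3 and Mael) and in 16.9% of all entries. Ddx4, Sycp3 and Mael held both motifs, as did 1.45% of all entries, and these letters are a description of the sequence only.

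The values given below are levels on the log2 scale, the background-corrected signal of a probe relative to the 75th percentile of its array, so 0 is the 75th percentile itself. A probe counts as above background where the scanner software marked it well above background. The lowest such level ranged from -3.27 on the fetal liver WT array to -5.06 on bone marrow WT replicate 2, and levels below it have no order. The array labelled bone marrow WT replicate 1 (here also the array labelled WT 1) stands apart. Its scanner file and its column in the authors' deposited value table hold different values, with 1.41% of comparable probes within 1%, whereas the other 5 arrays matched throughout. By scanner file, Trim28 read 2.45 there and the 10 stem and progenitor markers had a median of -0.43, with 7 above background. By the table Trim28 read 5.18, the marker median was 3.35 and all 10 were above the level used. One description line of that sample also names an Hp1a knockdown, and one of bone marrow KO replicate 1 an Hp1g knockdown. Bone marrow results on the 10 genes are therefore given from both sources. Trim28 itself was at 5.97 in fetal liver WT and 1.68 in KO, while the other bone marrow WT array read 5.55 and the KO arrays 1.28 and 0.75. With the table, the bone marrow difference was -4.34 ± 0.31 (SE, 2 arrays of each genotype, limma adjusted p = 0.0148). With the scanner files it was -2.98 ± 1.07 and was not called.

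**Figure D1:**
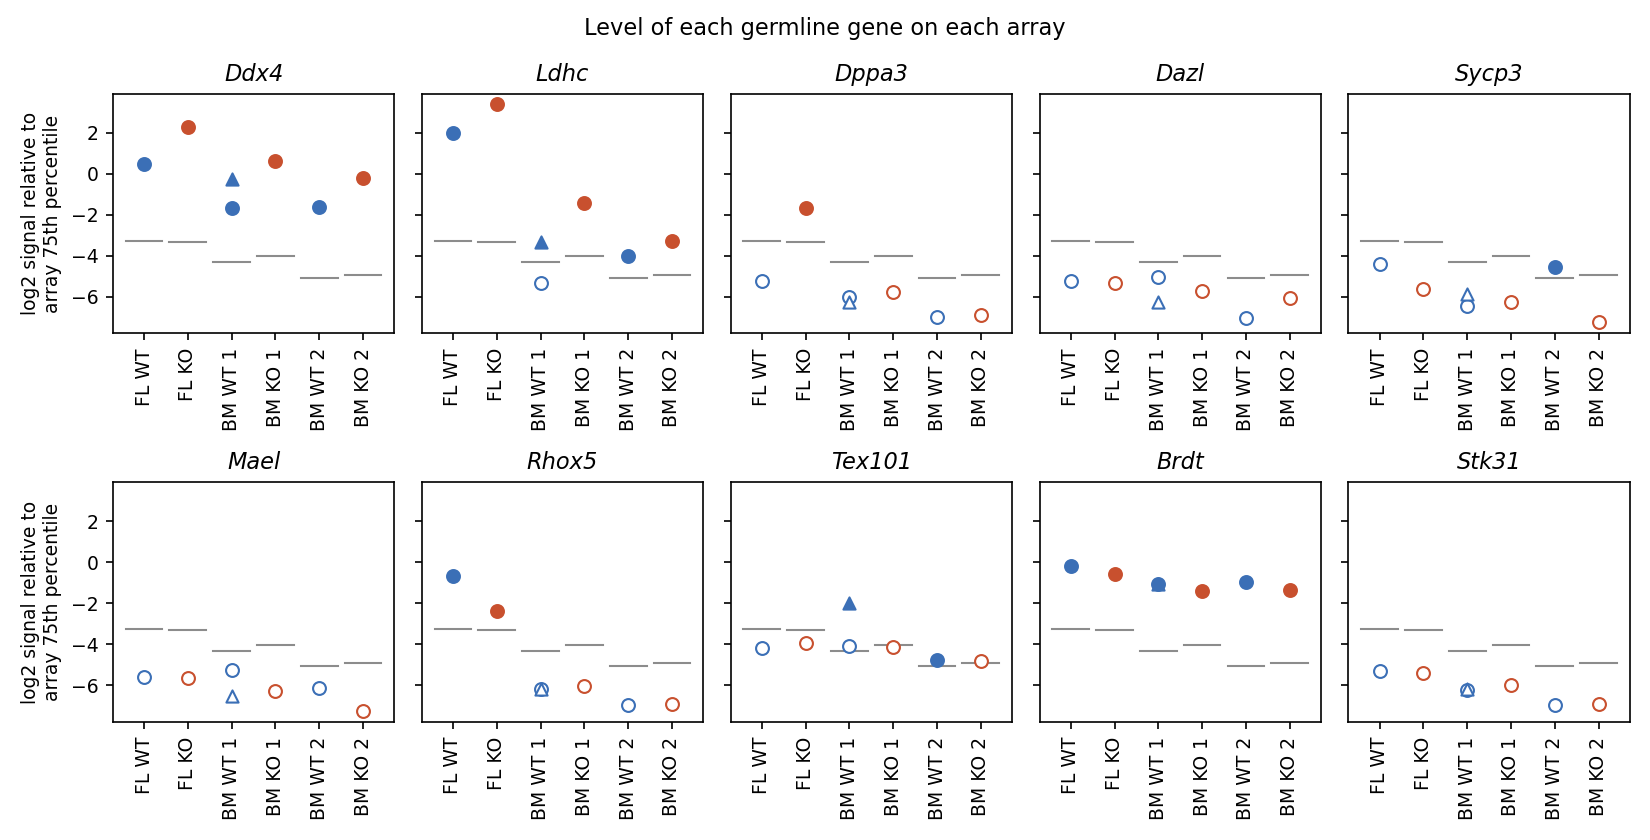
Level of each of the 10 germline genes (brightest probe, log2 relative to the array's 75th percentile) on the 6 arrays, WT in blue and KO in red, with a grey line at the lowest level marked above background on that array. Filled symbols are above background, circles are scanner files and the triangle is the deposited table's value for the array labelled bone marrow WT replicate 1. Ddx4 and Brdt are filled throughout, Dppa3 on the fetal liver KO array alone, and Dazl, Mael and Stk31 on none.

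The germline genes ranged from detected on every array to detected on none, and the share detected on none was near that of all genes. By both sources, 3 of the 10 genes (Dazl, Mael and Stk31) were above background on no array, against 26.5% of all named genes with the table's value for the array labelled WT 1. A further 3 (Ddx4, Ldhc and Brdt) were above background on at least 5 of the arrays by the scanner files. With the table's value for the array labelled WT 1, these 3 of 10 were above background on all 6 arrays, against 55.4% of all named genes. Counting each gene by its brightest probe, 4 of 10 were detected on the fetal liver WT array and 5 on the KO array. In bone marrow, 5 and 3 were detected in WT and KO of pair 2, and 3 in KO of pair 1. The array labelled WT 1 had 2 by its scanner file and 4 by the table. For comparison, 59.9% and 60.4% of all named genes were detected on the fetal liver WT and KO arrays. In bone marrow the shares were 68.65% and 68.61% in WT and KO of pair 2, and 61.5% in KO of pair 1. The array labelled WT 1 had 63.4% by its scanner file and 61.7% by the table. The knockout arrays thus did not hold more detected members than the wild type arrays throughout.

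Ddx4, also called Vasa, encodes a DEAD-box RNA helicase of germ granules and is a defining germ cell gene. It was above background on all 6 arrays. In fetal liver Ddx4 was at 0.47 in WT and 2.30 in KO, a difference of 1.83. In bone marrow replicate 2 it was at -1.63 in WT and -0.22 in KO, a difference of 1.41. In bone marrow replicate 1 KO was at 0.63, and the WT array read -1.65 by scanner file and -0.25 by the table. Ddx4 was thus higher in KO in each of the 3 pairs by either source, and the 2 bone marrow KO arrays lay above both WT arrays. By the table that separation was narrow, with KO replicate 2 at -0.22 and WT replicate 1 at -0.25.

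The bone marrow difference of Ddx4 did not pass over all genes. It was 1.84 ± 0.45 (SE, n = 2 arrays per genotype) with the scanner files, with an unadjusted limma p of 0.00951 and an adjusted p of 1, where 0% of 13011 genes were called. With the table it was 1.14 ± 0.54 (limma adjusted p = 0.562), where 0.939% of 12784 genes were called. With the slide as a block, the table gave the same difference with an SE of 0.20 and a limma adjusted p of 0.0388, where 7.74% of genes were called and 3.99% were called higher. The block did not bring a call with the scanner files (limma adjusted p = 0.806). Leaving out 1 array moved the table's difference between 0.45 and 1.84 and that of the scanner files between 1.42 and 2.26, with a lone array assumed to vary like the other genotype's. Without the array labelled WT 1 the table gave 1.84 ± 0.52 (limma adjusted p = 0.0337) and the scanner files 1.83 ± 0.53 (limma adjusted p = 0.072). Without WT replicate 2 the table gave 0.45 ± 0.52 (limma adjusted p = 1) and the scanner files 1.85 ± 0.53 (limma adjusted p = 0.0112). Without KO replicate 1 the table gave 0.72 ± 0.53 (limma adjusted p = 0.631). Over both tissues with the table the difference was 1.37 ± 0.45 (n = 3 arrays per genotype, limma adjusted p = 0.401). The difference between the tissues' genotype effects was 0.69 ± 0.97 for Ddx4 (SE, limma adjusted p = 1), where 0% of 13502 genes were called.

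Ldhc encodes the lactate dehydrogenase subunit used by sperm for energy metabolism. It had 2 probes. The brighter was at 2.00 in fetal liver WT and 3.39 in KO, a difference of 1.39. In bone marrow replicate 2 it was at -4.03 in WT and -3.29 in KO, a difference of 0.74. In bone marrow replicate 1 KO was at -1.42, and the WT array was at -5.34, not above background, in the scanner file and at -3.34 in the table. Ldhc was therefore strongly detected in fetal liver and much dimmer in bone marrow. On bone marrow KO replicate 1 it stood well clear of that array's lowest level marked above background, -4.03. The second probe gave 0.03 and 1.41 in fetal liver WT and KO, and -4.71 and -4.41 in bone marrow WT and KO replicate 2. Both Ldhc probes were higher in KO than in WT in each pair.

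The bone marrow difference of Ldhc was 2.33 ± 0.81 (SE, n = 2 arrays per genotype) with the scanner files and 1.33 ± 0.65 with the table, and neither passed (limma adjusted p = 1 and 0.574). With the slide as a block the table's SE was 0.31 (limma adjusted p = 0.0724). Leaving out 1 array moved the table's difference between 0.40 and 2.26. Without KO replicate 1 it was 0.40 ± 0.42 (limma adjusted p = 0.743), and without KO replicate 2 it was 2.26 ± 0.42 (limma adjusted p = 0.0116), with the lone KO array assumed to vary like the WT arrays. Without the array labelled WT 1 it was 1.67 ± 0.55 (limma adjusted p = 0.107). With the scanner files the one WT array above background was replicate 2, and normexp background correction reduced the difference from 2.33 to 0.88. Over both tissues the difference was 1.35 ± 0.51 (n = 3 arrays per genotype, limma adjusted p = 0.467). Of all genes tested over both tissues, 0.17% were called, and 0 of the 6 members tested were among them (2 at an unadjusted limma p under 0.05, as were 1401 of all 13502 genes tested). A KO level above WT in all 3 pairs by the table was met by 17.3% of those genes. The neighbouring Ldha, the lactate dehydrogenase subunit common to most tissues, was at 9.77 in fetal liver WT and 9.98 in KO. Its difference was -0.04 and -0.24 in bone marrow pairs 1 and 2 by the table.

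Markers of other blood cells differed between the same bone marrow arrays. The summed linear ratio of 8 neutrophil markers was 1293 and 666 on WT arrays 1 (table) and 2, and 263 and 25.5 on the KO arrays. All 8 were above background on both WT arrays, and 4 were called lower in KO with the table. The 8 erythroid markers summed to 22.6 and 16.8 in WT and to 580 and 74.9 in KO. The stem and progenitor list was closer, at 202 and 193 in WT and 222 and 244 in KO. The scanner file of the array labelled WT 1 gave 2187 for the erythroid and 447 for the B lymphoid list, against 21.5 for the B lymphoid list on WT replicate 2. The part of these cell types in the levels of Ddx4 and Ldhc was not tested.

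**Figure D2:**
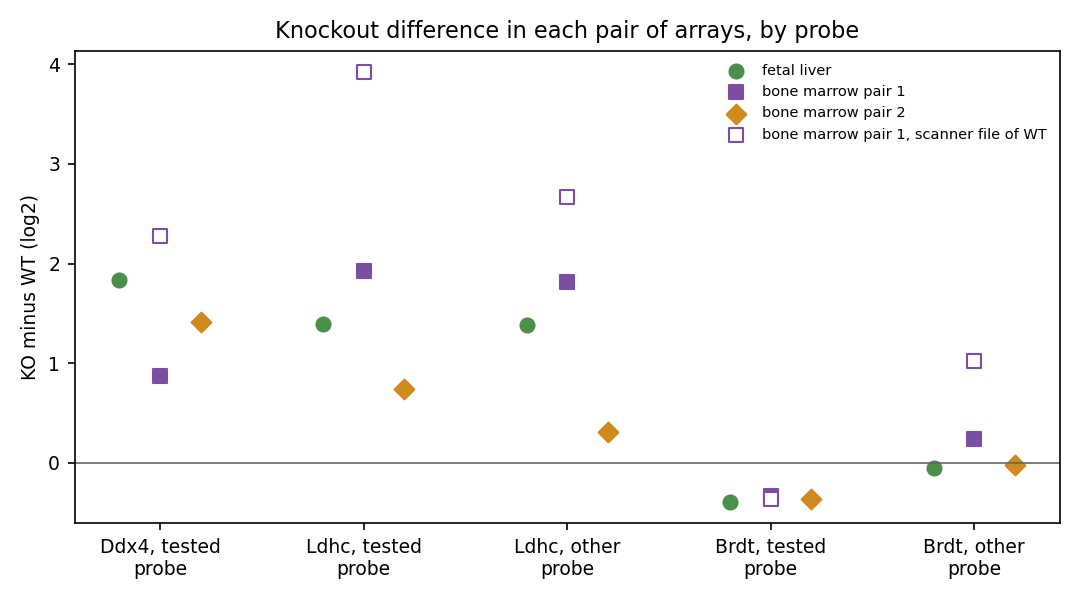
Difference between the KO and WT array (log2) in each of the 3 pairs for every probe of Ddx4, Ldhc and Brdt, from the deposited table, with an open square where the scanner file of the array labelled WT 1 (bone marrow WT replicate 1) is used. Ddx4 and both Ldhc probes lie above 0 in every pair, and the tested Brdt probe lies slightly below 0.

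Brdt, which reads acetylated histones during sperm formation, had 2 probes that differed in level. The probe for NM_001079873 was above background on all 6 arrays. It was at -0.16 in fetal liver WT and -0.55 in KO. In bone marrow it was at -1.03 (table -1.06) and -0.97 in WT and at -1.40 and -1.34 in KO. It was slightly lower in KO in all 3 pairs, as were 26.3% of genes tested, and the difference over both tissues was -0.37 ± 0.16 (SE, n = 3 arrays per genotype) with limma adjusted p = 0.515. In bone marrow alone it was -0.37 ± 0.36 with the scanner files and -0.35 ± 0.24 with the table (limma adjusted p = 1 and 0.773). The probe for NM_054054 was between -5.41 and -4.09 on the 6 arrays and above background on bone marrow replicate 2 alone, in WT and KO. The 2 probes therefore disagree on whether Brdt was expressed in fetal liver.

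Dppa3 encodes a maternal factor that protects the zygote's DNA methylation and is a marker of primordial germ cells. It was above background on the fetal liver KO array only, at -1.67. The fetal liver WT array was at -5.21, below background, so the KO level was at least 3.04-fold higher. This bound compares the KO signal with the lowest signal marked above background on the WT array. All bone marrow values lay below background, between -6.98 and -5.79. The fetal liver KO level was at least 6.98-fold above that of the bone marrow KO arrays. The neighbouring genes Nanog and Gdf3 did not share this pattern. Nanog was at 0.45 in fetal liver WT and 0.43 in KO, and Gdf3 at 1.14 and 0.49.

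Of the 5 members above background on a fetal liver array, 3 (Ddx4, Ldhc and Dppa3) were at least 2-fold higher in KO and 1 (Rhox5) at least 2-fold lower. Over all genes detected on either array, 5.33% were at least 2-fold higher and 4.45% at least 2-fold lower. With 1 array per genotype these differences have no replicate check. With a normexp background correction, 2 of the 5 passed 2-fold, with a difference of 0.87 for Dppa3 and of -0.98 for Rhox5.

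Rhox5 encodes a homeobox protein of Sertoli cells and the epididymis, and also of the placenta. It was detected in fetal liver alone, at -0.67 in WT and -2.36 in KO. The KO level was 3.22-fold lower. On the bone marrow arrays it lay between -6.95 and -6.02, not above background. Fetal liver thus exceeded bone marrow at least 7.53-fold by the table and at least 8.37-fold by the scanner files. The limma adjusted p of 0.00531 by the table does not refer to these bounds. It uses the measured values, which in bone marrow were all below background. Rhox5 passed the filter through the fetal liver arrays alone, so this p adds no support. The genes beside it in the Rhox cluster, Rhox6 and Rhox2h, were not above background in fetal liver. Rhox6 was above background on no array. Rhox2h was above background only on the bone marrow replicate 2 arrays, at -3.26 in WT and -3.06 in KO. Another Rhox gene, Rhox8, was above background on both fetal liver arrays. No genotype difference can be given for Rhox5 in bone marrow.

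The 3 genes whose profile over the 6 arrays was closest to Rhox5 were Alb, Slc30a8 and Rbp4, with root mean square differences of 0.138, 0.188 and 0.339 between centred log2 levels, among 3659 genes. Rhox5 and all 3 of these genes lay below background on every bone marrow array, so the likeness rests largely on the fetal liver pair. Alb, serum albumin, was at -0.42 in fetal liver WT and -2.19 in KO. Rbp4, the plasma carrier of retinol, was at 0.17 and -1.06. Alb and Rbp4 are made by hepatocytes, and other hepatocyte markers were lower on the same KO array. Of 7 hepatocyte markers 5 were above background on the fetal liver WT array and 3 on the KO array, and the measured KO levels of those 5 were at least 2-fold lower, with Ttr and Fgb not above background in KO, while Apoa1 and Apoh were above background on no array. The summed ratio of the list was 10.1 in WT and 2.07 in KO, and between 0.233 and 3.45 on the bone marrow arrays. B lymphoid markers also differed, with 8 above background in fetal liver WT and 3 in KO, whereas the stem and progenitor list summed to 169.8 and 172.0. The 8 erythroid markers summed to 887.8 in fetal liver WT and 1583.5 in KO, with 4 at least 2-fold higher in KO and 0 at least 2-fold lower. The part of hepatocyte RNA in the Rhox5 level was not tested.

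Dazl, Mael and Stk31 were not above background on any array. Dazl encodes an RNA-binding protein required for germ cell development and Mael a piRNA pathway protein that restrains transposons. Dazl lay between -7.05 and -5.02, Mael between -7.25 and -5.26, and Stk31 between -6.95 and -5.32. A laxer mark of the scanner software, positive and significant signal, was set for Dazl on the array labelled WT 1 and on both bone marrow KO arrays, for Mael on both bone marrow WT arrays, and for Stk31 on none.

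Sycp3 and Tex101 lay near background. Sycp3 was above background on bone marrow WT replicate 2 alone, at -4.55, and was at -7.24 on the KO array of that pair. It was at -4.40 and -5.63 in fetal liver WT and KO, neither above background. Tex101 was marked above background on bone marrow WT replicate 2 at -4.78 while the KO array beside it was at -4.80, so the mark separates arrays of the same level. On the array labelled WT 1 it read -4.08 by scanner file and -1.96 by the table. Since neither bone marrow KO array was above background, the table gives a KO level at least 2.04-fold lower (limma adjusted p = 0.869), and the scanner files give no bound. By the table the measured difference was -1.08 ± 0.92. It turned to 0.35 without the array labelled WT 1 and was -2.50 without WT replicate 2, so its direction moved with the WT array left out. By the table Tex101 passed the filter through the WT arrays alone, so the fit adds no support for a difference.

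Fetal liver arrays were higher than bone marrow arrays for the members that were best detected. Ldhc differed by 5.71 ± 0.54 (SE, 2 fetal liver and 4 bone marrow arrays, limma adjusted p = 0.00454) in the fit of tissue plus genotype with the table. In that fit 22.8% of genes were called, 1881 higher and 1200 lower in fetal liver, and the median over all genes tested was 0.26. With quantile scaling 1350 were higher and 1572 lower. Ddx4 differed by 1.75 ± 0.48 (limma adjusted p = 0.0515). It passed with the scanner files, where 2.11% of genes were called (2.10 ± 0.32, limma adjusted p = 0.0491), and without the array labelled WT 1 (limma adjusted p = 0.0262). Brdt differed by 0.84 ± 0.17 (limma adjusted p = 0.0249) but lost the call with the scanner files (limma adjusted p = 0.121) and without any 1 of the bone marrow arrays (limma adjusted p from 0.0505 to 0.0786). Dppa3, below background on every array but that of fetal liver KO, was called (measured difference 3.07 ± 0.80, limma adjusted p = 0.0472), and was not with the scanner files or without any 1 of the bone marrow arrays (limma adjusted p from 0.0523 to 0.105). Dppa3 passed the filter through the fetal liver KO array alone, and fetal liver WT was not above background. Its p therefore adds no support for a tissue difference. Adult and fetal samples also differ in Cre transgene and slide, so the source of these differences cannot be told apart.

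**Figure D3:**
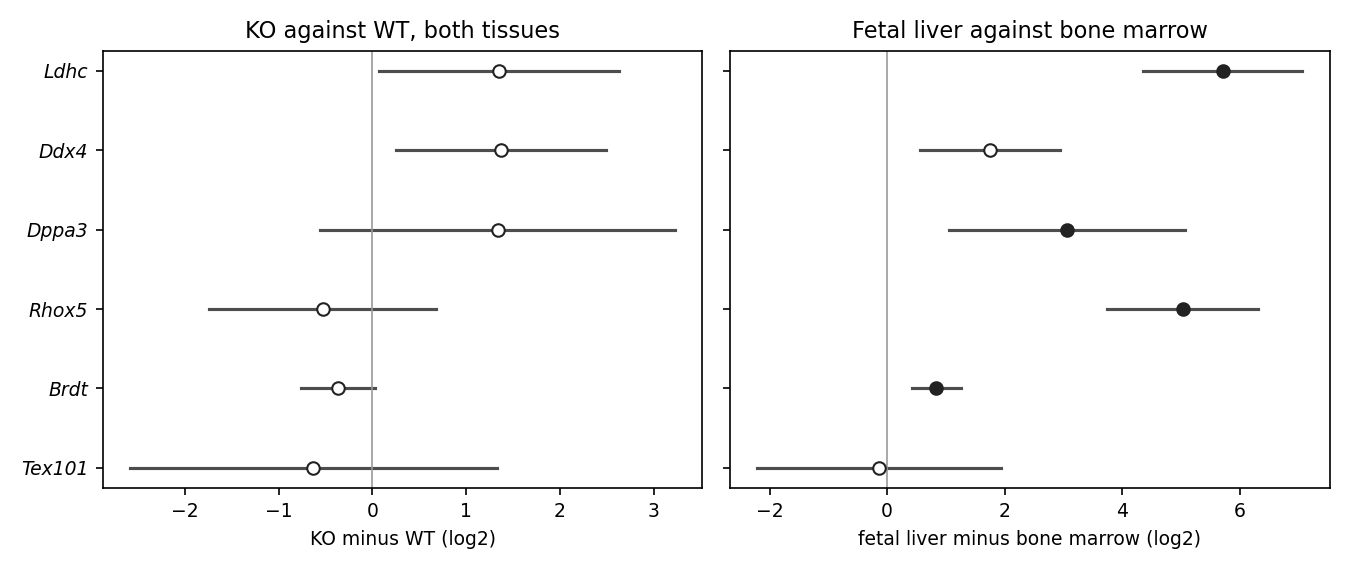
Difference with its 95% interval (log2, deposited table) for the 6 germline genes that passed the filter, for KO against WT over both tissues (left, 3 arrays per genotype) and for fetal liver against bone marrow (right, 2 and 4 arrays). Filled points have a limma adjusted p under 0.05. No point is filled on the left, and Ldhc, Rhox5, Brdt and Dppa3 are filled on the right, where the bone marrow levels of Rhox5 and Dppa3 are below background. Rhox5 passed the filter through the fetal liver arrays alone and Dppa3 through the fetal liver KO array alone, so their filled points add no support.

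The other genes of each member's family or process were read from lists by function. No gene of the meiosis, piRNA, germ cell, sperm, oocyte or X-linked lists was called for genotype in bone marrow by either source or over both tissues, by limma without the block. At an unadjusted p under 0.05, limma gave 2 of 54 tested with the scanner files, 7 of 51 with the table and 8 of 61 over both tissues. Over all genes tested these counts were 548 of 13011, 1414 of 12784 and 1401 of 13502, so the lists lay near the background. The lists held 29, 22, 19, 33, 19 and 25 genes on the array. Of these, 11, 11, 8, 12, 9 and 18 were above background on no array with the table's value for the array labelled WT 1. The share was 26.5% of all named genes. By the scanner file, Stra8 and Mei4 of the meiosis list were above background on the array labelled WT 1. By the table the median bone marrow difference of the meiosis genes tested was 0.04 and that of the piRNA genes -0.27, against -0.05 over all genes tested. Of the 24 silencing factors, which were all above background on all 6 arrays, Trim28 alone was called by the table. With the scanner files 0 of them were called in bone marrow. Setdb1, the methyltransferase recruited by TIF1b, differed by 0.88 ± 0.29 in bone marrow with the table (SE, 2 arrays of each genotype, limma adjusted p = 0.327). Mga, the DNA-binding subunit of the repressor complex named above, differed by -0.32 ± 0.40 (limma adjusted p = 0.962).

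Tdrd5, a Tudor domain protein of the piRNA pathway, had the largest bone marrow difference by the table among the tested genes of these lists. It was at -1.20 in fetal liver WT and 2.26 in KO, a difference of 3.46. On bone marrow replicate 2 it was at -6.98 in WT, not above background, and at -3.94 in KO. On replicate 1 KO was at -1.98, while the WT array was at 0.24 in the scanner file and at -6.27 in the table. Its second probe gave the same order on each array, from -2.02 in fetal liver WT to 1.501 in KO. Tdrd5 was higher in KO in all 3 pairs by the table, and higher in 2 of 3 pairs by the scanner files. The bone marrow KO arrays lay at least 2.69-fold above the WT arrays by the table. By the table no bone marrow WT array was above background. Tdrd5 passed the filter there through the KO arrays alone, so the p-values that follow add no support. By the table the difference was 3.67 ± 0.67 (SE, 2 arrays of each genotype, limma adjusted p = 0.101). It passed with the slide as a block (limma adjusted p = 0.00681), where 7.74% of genes were called. By the scanner files it was 0.41 ± 2.42 (limma adjusted p = 1). Syce1, of the synaptonemal complex, was not tested in bone marrow because it was above background on KO replicate 2 alone, at -1.74, with WT of that pair at -7.21. KO replicate 1 was at -5.37, not above background, so no lower bound can be given for the mean bone marrow KO level of Syce1. In fetal liver Syce1 was at -2.35 in WT and -3.14 in KO.

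Other piRNA and meiosis genes differed in no common direction. Rec8, the meiotic cohesin subunit, was higher in KO in each pair by the table, by 0.46 in fetal liver and by 0.92 and 1.103 in bone marrow pairs 1 and 2. The bone marrow difference of Rec8 was 1.01 ± 0.28 (SE, limma adjusted p = 0.243, and 0.0327 with the block). Dnmt3l, the cofactor of germline DNA methylation, was 1.62 higher in fetal liver KO and differed by -2.09 ± 0.30 in bone marrow (limma adjusted p = 0.0613, and 0.0116 with the block). Slx, an X-linked spermatid gene of a multicopy family whose copies may share a probe, differed by -1.15 ± 0.30 with the table (limma adjusted p = 0.22, and 0.025 with the block) and by 0.09 ± 0.80 with the scanner files. Tex19.2, which restrains transposons in germ cells, differed by -0.88 ± 0.25 (limma adjusted p = 0.257, and 0.0451 with the block). By the table Dnmt3l and Tex19.2 passed the bone marrow filter through the WT arrays alone, since KO replicate 1 was not above background. Stag3, another meiotic cohesin subunit, differed by -0.86 ± 0.38 (limma adjusted p = 0.508). Hormad2, of the meiotic axis, was at least 2.39-fold lower in bone marrow KO by the table, where no KO array was above background, and did not pass (limma adjusted p = 0.312). By the scanner files its difference was 0.01 and gives no bound.

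**Figure D4:**
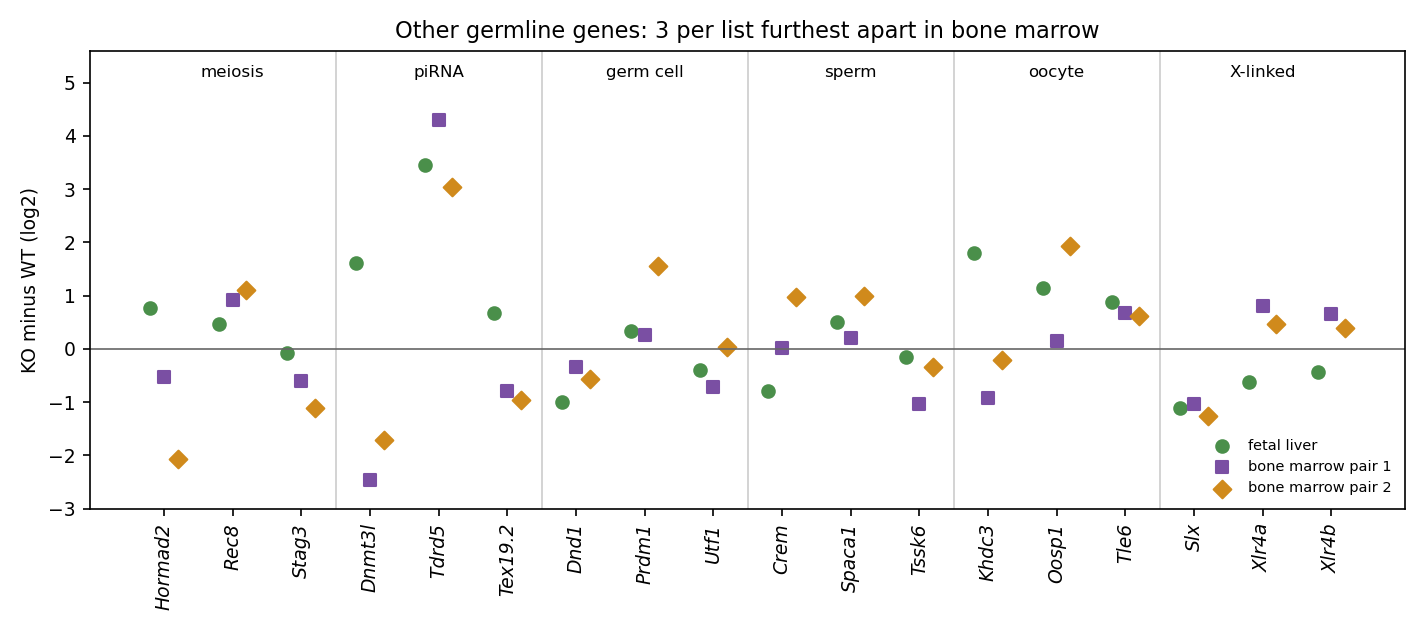
Difference between the KO and WT array (log2, deposited table) in each of the 3 pairs for the 3 genes per germline list with the largest bone marrow difference. Tdrd5 stands highest, at 3.46 in fetal liver and 4.29 and 3.05 in bone marrow pairs 1 and 2, and Dnmt3l has opposite signs in the tissues.

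In fetal liver, single genes of the lists were detected on 1 of the 2 arrays. Mos, the oocyte kinase of meiotic arrest, was at -1.19 in KO and -4.36 in WT, at least 4.24-fold higher. Dmc1, the meiotic recombinase, was at -1.71 in KO and -3.45 in WT, at least 2.96-fold higher. Tdrd9, a Tudor domain helicase, was at -2.42 in KO and -5.21 in WT, at least 1.80-fold higher. The reverse was seen as well. Slx and Crisp2, a sperm protein gene, were detected in WT and not in KO, at least 1.81-fold and 1.40-fold lower in KO. Meiob, a meiotic single-strand DNA binding protein, was at -2.61 in WT and -3.08, not above background, in KO. Among genes detected on both arrays, Tdrkh, a Tudor domain protein of piRNA trimming, differed by -1.93 and Gdf9, an oocyte growth factor, by -1.40. Of the meiosis list, 11 genes were detected on either fetal liver array. In KO, 2 of these were at least 2-fold higher and 0 at least 2-fold lower. Of 9 piRNA genes so detected the counts were 3 and 1, of 8 oocyte genes 3 and 1, and of 12 sperm genes 1 and 1. Of 10 germ cell genes they were 1 and 1, and of 7 X-linked genes 0 and 1. Over all genes detected on either array the shares were 5.33% and 4.45%. The 1-array groups allow no test of these.

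In bone marrow by the table, genes of the oocyte, sperm, germ cell and X-linked lists had median differences of 0.20, 0.12, -0.01 and 0.37 over the members tested. Tle6 and Oosp1, both oocyte genes, were higher in KO in all 3 pairs. Tle6, a subunit of the maternal complex under the oocyte's surface, differed by 0.88 in fetal liver and by 0.65 ± 0.31 in bone marrow (SE, limma adjusted p = 0.568). Oosp1, an oocyte secreted protein, differed by 1.14 in fetal liver and by 1.03 ± 0.62 in bone marrow (limma adjusted p = 0.704). Prdm1, which specifies primordial germ cells and is also active in lymphoid cells, differed by 0.90 ± 1.02 in bone marrow (limma adjusted p = 0.943). The sperm genes Spaca1 and Tssk6 differed by 0.60 ± 0.37 and -0.69 ± 0.30 (limma adjusted p = 0.728 and 0.505). The X-linked Xlr4a and Xlr4b, members of a multicopy family whose probes may be shared, were lower in fetal liver KO by the table (-0.62 and -0.44) and higher in bone marrow KO (0.64 ± 0.27 and 0.52 ± 0.28), with no call.

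Markers of the somatic cells of the gonad, 10 in all, were read on the same arrays. The markers Amh, Sox9, Inhbb, Hsd3b1, Dhh and Cldn11 were above background on no array. Foxl2, Cyp17a1 and Rhox8 were above background on all 6 arrays, with the table's value for the array labelled WT 1. The remaining marker was above background on some arrays only. The number above background was 3 in fetal liver WT and 4 in KO. In bone marrow it was 4 on each WT array, by either source, and 3 on each KO array. With the table, limma called 0 of 4 tested in bone marrow, and 1 was called lower in KO with the slide as a block. The list's summed ratio was 106.8 and 116.8 in fetal liver WT and KO, and from 83.7 to 112.3 on the bone marrow arrays by the scanner files.

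The genes closest to the remaining members were taken by the same measure over the 6 arrays. For Ddx4 they were Rab33a, Pglyrp1 and Il20ra (root mean square differences of 0.296, 0.345 and 0.37), and for Ldhc they were Pknox2, Clec4b2 and Cstdc6 (0.52, 0.598 and 0.60). For Dppa3 they were Ttc9b, Tcfl5 and 4930444G20Rik (0.0101, 0.0746 and 0.0806), all of which lay at the array floor except on the fetal liver KO array. Tcfl5, for example, was at -5.48 in fetal liver WT and -2.05 in KO. For Sycp3 they were Cibar2, Map3k6 and Smco2 (0.231, 0.293 and 0.31), and for Tex101, by the table, Ccn1, Olfr355 and Hpca (0.197, 0.273 and 0.336). The neighbours of Ddx4 on its chromosome did not follow it: Slc38a9 was at 0.02 and 0.24 in fetal liver WT and KO, and Il31ra was different by -1.27 and -2.11 (KO minus WT) in bone marrow pairs 1 and 2.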

How the data were processed

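The arrays are 1-colour (Cy3), each labelled from 10 ng of RNA per the labels. Agilent Feature Extraction 10.7.1.1 is named in the submitters' processing notes. The deposited scanner files hold background-corrected intensity and background flags per spot, per the file headers. The authors' deposited value table holds a linear ratio per probe, which is the intensity divided by a constant near the array's 75th percentile on 5 arrays. Column medians were 0.056 to 0.0709. No gene centring was seen.

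Levels are log2 of the intensity, or of the deposited ratio, minus the array's 75th percentile, with control and outlier spots dropped and repeated spots averaged. The flags cannot serve for the table's column of bone marrow WT replicate 1, so a level of -3.7 replaced them, which matches 99.1% of the flags on the KO array of its slide. Probes well above background numbered 24383 to 31419 per array, and the small number of arrays limits precision. RefSeq accessions named 26762 of 55681 probes, and a gene is represented by its brightest probe over the other 5 arrays. The array design and the RefSeq tables use different builds, so coordinates are given only with the RefSeq promoter sequences.

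Genes above background on all arrays of at least 1 group were tested with limma 3.58.1 in R 4.3.3 (lmFit, eBayes) and called at a Benjamini-Hochberg adjusted p under 0.05. The code was tested on simulated data. The members and lists were chosen with earlier results of these data known. Further genes were named by a rule: those called, and the 3 per list with the largest difference in each tissue. For each member that spans over 2 log2 units, the 3 genes with the smallest root mean square difference of centred levels were added. The tissue comparison and normexp on the median signal (offset 50, since no mean signal was used here) were added after seeing the data. Slides pair replicates 1 and 2, per the file headers. The correlation of deviations of same-numbered bone marrow arrays was 0.0915 with the scanner files and 0.643 with the table.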

Additional observations from a re-analysis of the deposited data

How the results depend on the processing

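With 2 bone marrow arrays per genotype and 1 per genotype in fetal liver, the counts of calls over all genes moved with many of the choices, though not with all. By the table, bone marrow had 120 calls, and 11 with no filter on dim probes, 29 with a filter on all arrays, 989 with the slide as a replicate block, and 335 to 651 with an array left out. By the scanner files 0 genes were called (548 at an unadjusted p under 0.05, limma), and 0 to 2217 with an array left out: 256 without the array labelled WT 1 (bone marrow WT replicate 1) and 2217 without WT replicate 2. Over both tissues 23 genes were called, and 0 with the scanner files, 0 with the replicate block, 35 with quantile scaling and 0 to 1 with an array left out. For the interaction 0 genes were called (955 at an unadjusted p under 0.05, limma), and 88 with quantile scaling and 163 to 280 with an array left out. For tissue 3081 genes were called, and 288 with the scanner files and 1227 to 2201 with an array left out. With the replicate block the bone marrow difference of Ddx4 by the table, 1.14, was called (limma adjusted p = 0.0388). The block changed no call of another of the 10 genes.

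Of the 10 genes, the number above background changed with the laxer flag of the scanner software on every array: from 2 to 6 on the array labelled WT 1, from 3 to 5 on KO replicate 1, from 3 to 5 on KO replicate 2, from 5 to 6 on WT replicate 2, and from 4 and 5 in fetal liver WT and KO to 6 on each. The number at least 2-fold apart in fetal liver went from 4 to 2 with normexp. The table's bone marrow difference ranged from 0.45 to 1.84 for Ddx4 and from 0.40 to 2.26 for Ldhc with an array left out. Ddx4, Ldhc and Brdt kept their direction for genotype under every alternative run for them. Tex101 turned: its bone marrow difference ranged from -2.50 to 0.35, its difference over both tissues from -1.31 to 0.31 and its tissue difference from -0.65 to 0.57 with an array left out. The cause was not tested.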
